A study of Mus musculus with 2 samples.

Results

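The Ikaros family of transcription factor genes was described in DNase-seq data from the mouse thymus. It has 5 members, Ikzf1 to Ikzf5, taken by name from the GENCODE M21 annotation out of the 21701 protein-coding genes compared (autosomes and X). For each gene, every peak and footprint that touched the gene body or the 50 kb to either side was collected. DNase-seq cuts nuclei with DNase I and sequences the cut ends, so that open DNA stands out as peaks of cuts, and a footprint is a short stretch within open DNA that is cut less than its surroundings. The thymuses came from 2 female B6CASTF1/J mice, hybrids of the C57BL/6J and CAST/EiJ strains, aged 14 days. The mice form 1 group of 2 biological replicates. Their animal numbers differ although the donor identifier is the same for both, and they were taken as 2 animals. No animal was treated or mutated.

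Ikaros family proteins bind DNA through zinc fingers near the N terminus and pair with each other through zinc fingers at the C terminus. Ikaros (Ikzf1) is required for lymphocyte development and restrains thymocyte growth, in large part through the NuRD chromatin remodelling complex. Helios (Ikzf2) and Eos (Ikzf4) are known for their part in regulatory T cells, Aiolos (Ikzf3) for its part in mature lymphocytes, and Pegasus (Ikzf5) is the most divergent member, with a different DNA preference.

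The family's loci gave 108 peaks in replicate 1 and 137 peaks in replicate 2. Of these, 90 replicate 1 peaks (83.3%) shared at least 1 bp with a replicate 2 peak, whereas the share over all peaks of replicate 1 was 75.2%. In the other direction 89 replicate 2 peaks (65.0%) had a counterpart, against 66.4% of all replicate 2 peaks. Peaks of both replicates that shared a base were merged into 144 elements, of which 81 were called in both. The strength of an element below is the authors' deposited signal of its strongest peak, and its percentile is its rank among all peaks of the same replicate. The scales of the replicates differ by a factor of unstated origin, so strengths are read within a replicate, or as log2 ratios set beside those of other elements. In whole tissue, fewer cells with an open element and less cutting per cell cannot be told apart.

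Of the 81 shared elements, 11 lay at the family's own start sites, 24 in the family's own introns and 2 over its own exons. Another 10 lay at start sites of neighbouring genes, 10 in the bodies of neighbouring genes and 24 outside coding genes. Ikzf1 had 29 shared elements of 50, Ikzf3 22 of 47, Ikzf4 15 of 22, Ikzf2 10 of 19 and Ikzf5 5 of 6. Ikzf1 and Ikzf3 held most of the elements found inside the family's genes. Ikzf1 had 13 shared elements in its introns, Ikzf3 had 7, Ikzf2 and Ikzf4 had 2 each, and Ikzf5 had none.

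**Figure D1:**
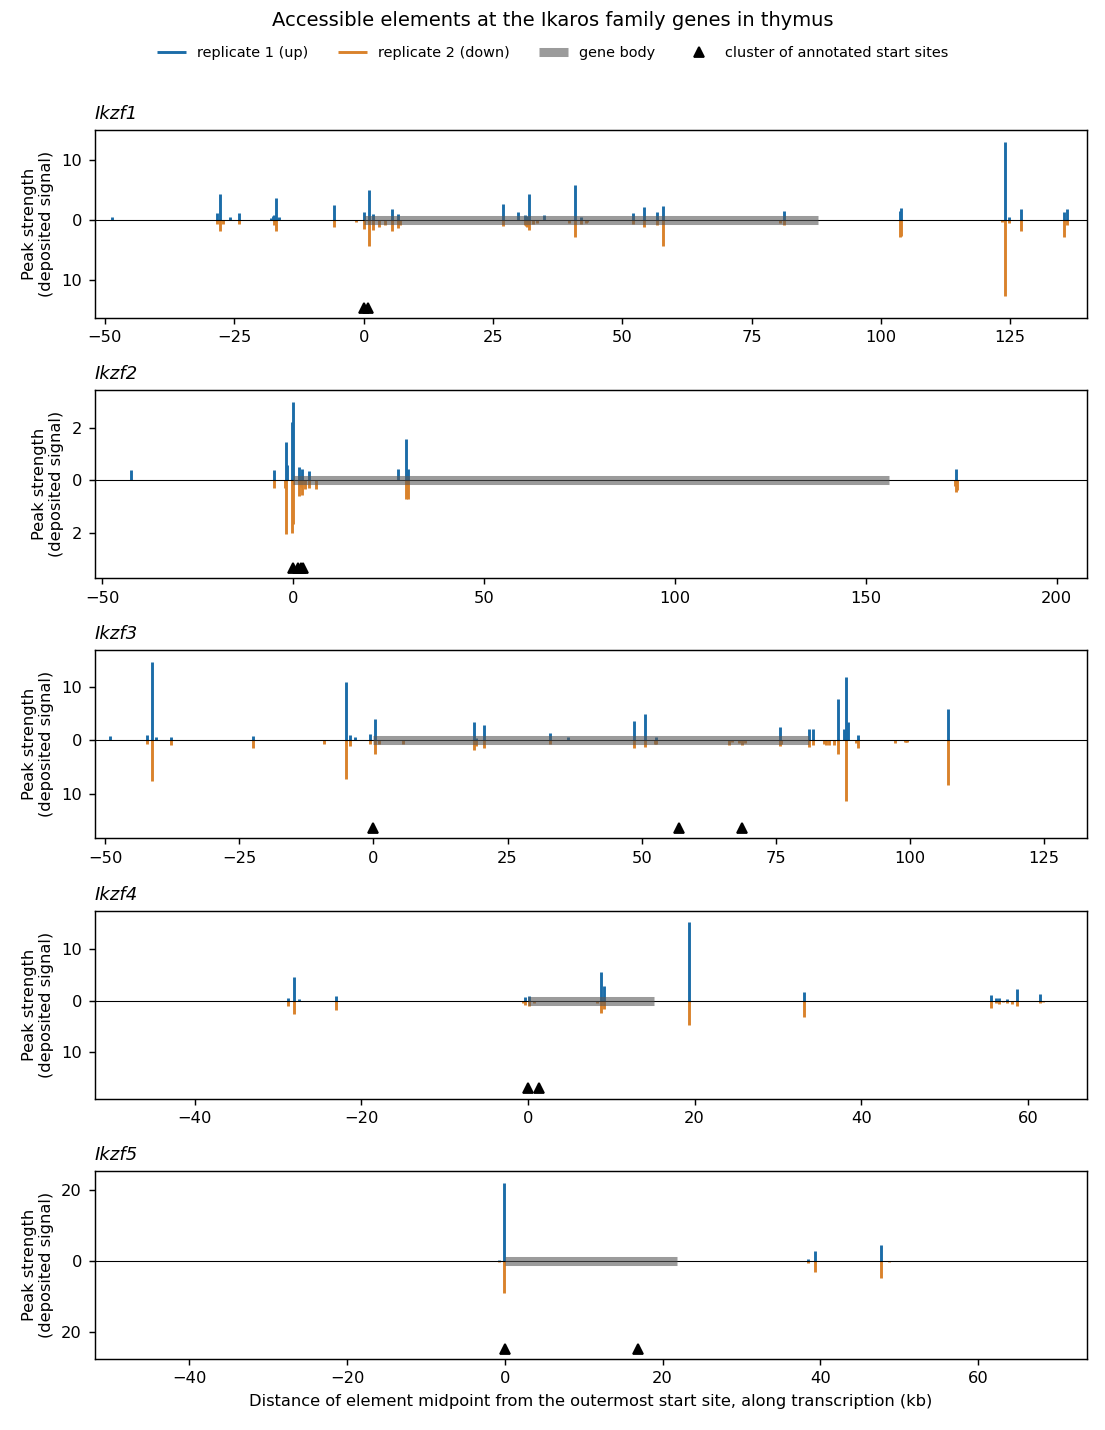
Strength of each element at the 5 genes, with replicate 1 drawn upward and replicate 2 downward, by distance of the element's midpoint from the gene's outermost start site in kb. The grey bar is the gene body and triangles mark the clusters of annotated start sites. Elements run through the body of Ikzf1 and Ikzf3, are seen only in the first part of Ikzf2, and at Ikzf5 appear at the promoter and at the neighbours but not in the gene body.

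The following stretches carry most of what is described below. They are printed 5′ to 3′ on the strand of the gene, in mm10 coordinates, with bases inside footprints of both replicates in capitals. The first 3 are promoter windows, 250 bases before to 50 bases after a start, as annotated by RefSeq on GRCm38.p6, whose promoter table matched 2 of the 5 members. The other sequences were read from the same assembly. They are the intronic elements that ranked highest in the replicate where they were lower (the first and the next for Ikzf1), the strongest distal peak of the family, and an element with a consensus site of CTCF, a protein that binds insulators and loop anchors.
Ikzf5 promoter, chr7:131410429-131410728, minus strand: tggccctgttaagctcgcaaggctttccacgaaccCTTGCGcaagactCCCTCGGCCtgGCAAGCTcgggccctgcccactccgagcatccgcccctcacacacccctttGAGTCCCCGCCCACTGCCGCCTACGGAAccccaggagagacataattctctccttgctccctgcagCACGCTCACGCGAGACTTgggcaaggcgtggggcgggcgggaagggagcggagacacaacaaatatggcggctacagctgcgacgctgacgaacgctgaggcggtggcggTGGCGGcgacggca
Ikzf1 promoter, chr11:11685675-11685974, plus strand: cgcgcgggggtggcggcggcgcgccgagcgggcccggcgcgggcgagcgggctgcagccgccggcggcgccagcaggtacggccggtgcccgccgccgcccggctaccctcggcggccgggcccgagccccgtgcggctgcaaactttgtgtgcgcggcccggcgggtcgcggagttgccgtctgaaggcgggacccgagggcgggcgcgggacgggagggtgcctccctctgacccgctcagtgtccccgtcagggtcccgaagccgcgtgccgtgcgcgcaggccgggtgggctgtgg
Ikzf1 internal RefSeq start, chr11:11689927-11690226, plus strand: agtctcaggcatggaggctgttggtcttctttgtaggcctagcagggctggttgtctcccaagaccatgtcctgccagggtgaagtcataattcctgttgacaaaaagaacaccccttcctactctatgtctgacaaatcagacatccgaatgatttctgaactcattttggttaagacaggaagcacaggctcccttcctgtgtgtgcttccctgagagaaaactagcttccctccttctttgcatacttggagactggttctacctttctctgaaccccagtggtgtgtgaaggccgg
Ikzf1 intron 3 element, strongest replicate 1 peak, chr11:11726221-11726480, plus strand: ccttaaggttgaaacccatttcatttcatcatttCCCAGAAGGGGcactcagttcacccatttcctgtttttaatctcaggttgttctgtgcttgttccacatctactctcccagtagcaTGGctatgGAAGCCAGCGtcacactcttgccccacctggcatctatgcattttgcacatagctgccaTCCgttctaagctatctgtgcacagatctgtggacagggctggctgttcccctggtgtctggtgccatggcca
Ikzf1 intron 3 element, farther into the intron, chr11:11742841-11743020, plus strand: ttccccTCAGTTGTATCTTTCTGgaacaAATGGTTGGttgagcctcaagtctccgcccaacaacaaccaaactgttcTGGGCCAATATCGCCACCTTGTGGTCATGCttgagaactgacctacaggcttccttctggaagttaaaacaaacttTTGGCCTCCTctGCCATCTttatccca
Ikzf3 intron 1 element, strongest replicate 1 peak, chr11:98527161-98527380, minus strand: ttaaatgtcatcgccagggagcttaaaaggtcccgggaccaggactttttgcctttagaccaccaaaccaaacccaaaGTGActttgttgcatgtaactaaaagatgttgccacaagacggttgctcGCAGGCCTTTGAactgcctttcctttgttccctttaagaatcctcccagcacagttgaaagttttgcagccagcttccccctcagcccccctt
Ikzf4 intron 5 element, chr10:128637081-128637340, minus strand: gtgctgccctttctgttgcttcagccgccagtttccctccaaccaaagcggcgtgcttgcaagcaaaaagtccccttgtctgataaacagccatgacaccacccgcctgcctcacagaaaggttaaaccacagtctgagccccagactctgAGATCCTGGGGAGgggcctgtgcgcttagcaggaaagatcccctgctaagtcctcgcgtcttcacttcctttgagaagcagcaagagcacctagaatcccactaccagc
Downstream of Ikzf3, the part of the element outside annotated exons, chr11:98457781-98457930, minus strand: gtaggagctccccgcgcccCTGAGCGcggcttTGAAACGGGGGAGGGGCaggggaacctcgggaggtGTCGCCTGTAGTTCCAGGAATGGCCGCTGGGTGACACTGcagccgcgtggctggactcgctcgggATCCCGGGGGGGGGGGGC
CTCF consensus element upstream of Ikzf3, chr11:98568397-98568600, minus strand: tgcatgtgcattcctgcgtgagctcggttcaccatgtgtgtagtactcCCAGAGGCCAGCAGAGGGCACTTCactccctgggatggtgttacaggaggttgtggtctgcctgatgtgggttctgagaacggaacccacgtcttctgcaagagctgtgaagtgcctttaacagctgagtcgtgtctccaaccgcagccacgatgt
The Ikzf5 window was 65.7% G and C with 27 CpG, and 74 of its 300 bases were inside footprints of both replicates. The main Ikzf1 window was 81.3% G and C with 52 CpG, and the internal Ikzf1 window 49.0% with 2 CpG. Neither window held a base footprinted in both. The main window ends before the replicate 1 peak of that promoter, which starts at 11686041. The promoter element, at 11685841 to 11686260, had 72 bases footprinted in both, and the element over the internal start had 27. The median of all 32851 RefSeq promoter windows of this length was 52.7% G and C.

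All 5 promoters were open in both replicates, meaning that a peak touched the 500 bp to either side of an annotated start site. Over all protein-coding genes the share open in both was 60.7%, so most genes pass this call. Of the family's 30 start sites, 25 were open in both replicates, against 48.8% of all 93012 start sites. Start sites of a gene that lie close together share peaks and are not independent. Chained where 500 bp or less apart, the 30 sites formed 13 clusters, and 9 of these were open in both replicates. Neighbouring clusters of Ikzf1 and of Ikzf2 still share peaks. The share of open clusters over all genes was not computed, so 9 of 13 is given as a description. The promoters did not stand at the same level. In each replicate the order was Ikzf5, Ikzf1, Ikzf3, Ikzf2 and Ikzf4, from strongest to weakest.

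Ikzf1, on the plus strand at chromosome 11, 11685003 to 11772926, had a pair of open clusters of start sites 922 bp apart. Strength at the outer cluster, a single start site, was 1.36 in replicate 1 and 1.5 in replicate 2. The inner cluster, with 4 start sites and the reference transcript Ikzf1-204, had 4.94 and 4.31, at the 89.4th and 93.1st percentile of all peaks. The inner cluster was thus the stronger in both animals. Among genes with an open promoter, the Ikzf1 promoter ranked at the 45.6th percentile in replicate 1 and the 56.2nd in replicate 2, near the middle. RefSeq also starts a non-family gene, Gm11999, within 500 bp of these peaks. A further stretch of open chromatin, at 11689959 to 11690968 in intron 1, lay over a start that RefSeq annotates and GENCODE M21 does not. It measured 1.86 in both replicates, with 8 footprints in each, 55.3% G and C around its centre and 4 CpG in 300 bases. The 300 bases around the inner Ikzf1 cluster held 72.0% G and C and 35 CpG. The distal counts below include the intron 1 element. They also include other elements within 500 bp of a RefSeq start. Among these is the printed CTCF consensus element upstream of Ikzf3, 166 bp from a predicted start of Gm38981.

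Ikzf3, on the minus strand at chromosome 11, 98464902 to 98546031, had a single cluster open in both replicates. It measured 4.03 in replicate 1 and 2.52 in replicate 2, the 40.2nd and 37.3rd percentile of open promoters. The other annotated starts lie deep in the gene and belong to non-coding transcripts. The start 68628 bp into the gene was touched by a peak of 0.898 in replicate 2 and by no peak in replicate 1, and the start 57011 bp in by no peak in either. Ikzf3 was therefore open at its coding promoter, with no internal start open in both animals.

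Ikzf2, on the minus strand at chromosome 1, 69531214 to 69687245, had 4 clusters of start sites near its 5′ end, all open in both replicates. The outermost reached 2.98 in replicate 1 and 2.03 in replicate 2, from different peaks. Of the elements there, 69687121 to 69687360 had 2.98 and 1.67, and 69687441 to 69687880 had 2.21 and 2.03. The other 3 were weaker, between 0.431 and 0.493 in replicate 1 and between 0.553 and 0.610 in replicate 2. The 0.431 of replicate 1 and the 0.610 of replicate 2 are each a single peak that touched the windows of neighbouring clusters. None of these 3 clusters was open in both replicates in the authors' stricter peak list. The cluster of the reference transcript Ikzf2-201 was among the weak ones, with 0.493 and 0.610. The innermost start, at 69684157, shared by 3 transcripts, was touched by no peak in replicate 1 and by a peak of 0.334 in replicate 2. The outermost cluster of Ikzf2 was thus the strongest in both animals.

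Ikzf4, on the minus strand at chromosome 10, 128630843 to 128645991, had the weakest promoter of the family. Its main cluster of 6 start sites had 0.815 in replicate 1 and 1.01 in replicate 2, the 14.3rd and 19.9th percentile of open promoters. The start 1343 bp further in, of a coding transcript, had no peak in either replicate. Gm26876, a neighbour on the opposite strand in RefSeq, starts inside the Ikzf4 promoter element, so this strength too cannot be assigned to Ikzf4 alone. An upstream element at 128668881 to 128669180 lay 173 bp from a start that RefSeq predicts for Ikzf4. It measured 0.976 in replicate 1 and 1.74 in replicate 2, which is above that of the annotated promoter in both animals.

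Ikzf5, on the minus strand at chromosome 7, 131388652 to 131410521, had the strongest promoter. The single peak over its 6 clustered start sites had 22.1 in replicate 1 and 8.98 in replicate 2, the 93.4th and 91.2nd percentile of open promoters. The lowest false discovery rate in the authors' deposited track there was 6.05e-294 in replicate 1 and 3.49e-175 in replicate 2. Acadsb, which encodes a mitochondrial acyl-CoA dehydrogenase, starts on the opposite strand within this peak, so the strength cannot be split between the genes. The start 16864 bp into the gene had no peak in either replicate.

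**Figure D2:**
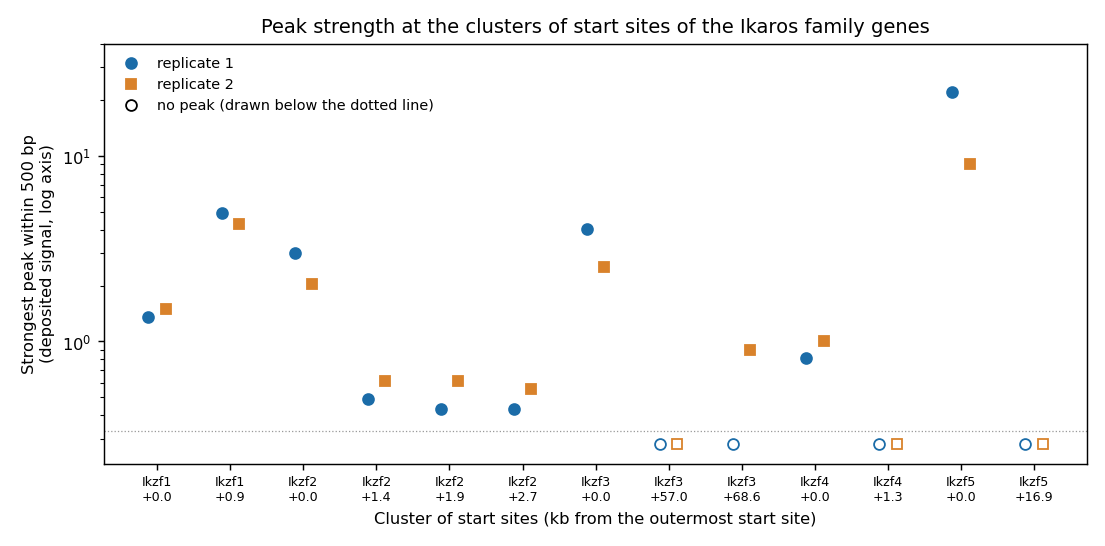
Strength of the strongest peak within 500 bp of each of the 13 clusters of start sites, on a log axis, by replicate, with each cluster's distance in kb from the gene's outermost start. Filled symbols are called peaks and open symbols below the dotted line mark clusters without a peak. Ikzf5 is highest (22.1 and 8.98), and 3 of the 13 clusters, at Ikzf3, Ikzf4 and Ikzf5, hold no peak in either replicate.

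The introns of Ikzf1 held the largest number of shared elements in the family. Intron 3 of the reference transcript, 40.4 kb long, had 10 of the 13, intron 1 had 2 and intron 7 had 1. In intron 3 the strengths ran from 0.504 to 5.82 with a median of 1.73 in replicate 1, and from 0.628 to 4.39 with a median of 1.1 in replicate 2. The element at 11725321 to 11726520, 40917 bp from the outermost start, was the strongest in replicate 1 with 5.82 and had 2.84 in replicate 2, with 12 and 9 footprints. The element at 11742841 to 11743020 was the strongest in replicate 2, with 4.39, and had 2.33 in replicate 1. The order of these elements was therefore reversed between the animals. Each exceeded the gene's own promoter in the replicate where it was strongest (5.82 against 4.94, and 4.39 against 4.31) and was below it in the other.

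Another intron 3 element, at 11716861 to 11717040, had 4.31 in replicate 1 and 1.65 in replicate 2. Outside coding genes the Ikzf1 locus had 8 shared elements, and the strongest in replicate 1, at 11657041 to 11657480 upstream of the gene, had 4.32 in replicate 1 and 1.81 in replicate 2. The strongest in replicate 2, at 11812061 to 11812240 downstream, had 1.75 in replicate 1 and 1.89 in replicate 2. A further upstream element, at 11667961 to 11668240, had 3.64 and 1.81. The strongest Ikzf1 peaks without a counterpart had 1.27 at 11714701 to 11714900 in replicate 1 and 1.19 at 11687601 to 11688340 in replicate 2, the 65.6th and 70.1st percentile of all peaks.

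In Ikzf3 the 7 shared intronic elements fell in intron 1 (3), intron 3 (3) and intron 7 (1). The strongest in replicate 1 was in intron 3, at 98495221 to 98495460, with 4.96, and it had 1.27 in replicate 2. In replicate 2 the strongest was in intron 1, at 98527141 to 98527560, with 1.77, and it had 3.47 in replicate 1. A pair at 98497381 to 98497700 (3.58 and 1.40) and 98525261 to 98525440 (2.96 and 1.39) followed. Of the 7, 6 had the larger value in replicate 1 and their median log2 ratio of replicate 1 over replicate 2 was 1.09. Over all 68724 shared elements the median was 0.26, with 38.3% larger in replicate 2. For Ikzf1 the median was 0.56, with 5 of 13 larger in replicate 2.

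The strongest distal element of the whole family, over 500 bp from any annotated coding start, lay downstream of Ikzf3. This element, at 98457781 to 98458060, 6982 bp past the end of the gene, had 11.8 in replicate 1 and 11.3 in replicate 2, the 96.4th and 99.6th percentile of all peaks. It was CpG-rich, with 72.3% G and C and 28 CpG in the 300 bases around its centre. RefSeq predicts a start of Mien1, which encodes a small membrane-anchored protein, 170 bp away, beside a known start of Mien1 at 98438988. Its neighbour at 98459021 to 98459840 had 7.80 and 2.60, with 15 footprints in replicate 1 and 4 in replicate 2. The strongest Ikzf3 peak of replicate 1 without a counterpart, 3.44 at 98457401 to 98457720, was in the same group. All 320 of its bases were also under a false discovery rate of 0.05 in replicate 2, with 3 footprints there, so only the peak call was missing.

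Ikzf4 had a compact pair of shared elements in intron 5, which is 3.4 kb long. The element at 128637081 to 128637340 had 5.56 in replicate 1 and 2.40 in replicate 2, and its neighbour at 128636661 to 128636960 had 2.90 and 1.61. Both were stronger than the Ikzf4 promoter (0.815 and 1.01) in both animals. No other intron of Ikzf4 held a shared element. Downstream, the element at 128612721 to 128612920 had 1.57 in replicate 1 and 3.20 in replicate 2 and was the strongest distal element of the locus in replicate 2.

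Ikzf2 is the longest member, with 156.0 kb, and its shared intronic elements were only 2, both in intron 3, which is 105.2 kb long. At 69657542 to 69657760 the strength was 1.58 in replicate 1 and 0.708 in replicate 2, and at 69657096 to 69657270 it was 0.410 and 0.720. Beyond them, the last 125.9 kb of the gene, or 80.7% of it, held no peak in either replicate. The longest such stretch was 22.5 kb in Ikzf1 and 13.2 kb in Ikzf3. The strongest distal element of Ikzf2 in replicate 2 lay just upstream of the outermost start, at 69689101 to 69689300, with 1.44 in replicate 1 and 2.04 in replicate 2.

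Ikzf5 had no peak in its introns in either replicate, and 99.8% of the gene body was free of peaks. Its only shared distal elements were weak and inside neighbouring genes. The one in Pstk, which encodes a kinase of selenocysteine synthesis, at 131371981 to 131372180, had 0.540 and 0.605, and the one in Acadsb, at 131411161 to 131411420, had 0.275 and 0.426.

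Counted per 100 kb of the gene body and 50 kb to either side, distal peaks separated the members further. Overlapping peaks of the same replicate were each counted, such as the 3 of replicate 2 in the Ikzf1 element at 11725321 to 11726520. Ikzf1 had 20.2 in replicate 1 and 22.9 in replicate 2, the 310th highest mean of 21701 genes. Ikzf3 had 14.4 and 18.8 and was 878th, and Ikzf4 had 8.68 and 13.0 and was 2926th. Ikzf2, with 3.52 and 4.30, and Ikzf5, with 1.64 and 2.46, lay below the median of all genes, which was 4.51. No member's pair of values overlapped that of its neighbour in this order. Neighbouring genes share these windows, and 10 of the shared elements lay inside neighbouring genes, so a density belongs to the locus and not to the gene alone. Of 12 other genes for transcription factors of T cell development, listed for comparison, all had open promoters and their median was 15.0, with a range of 4.33 (Tcf12) to 50.5 (Tcf7). Ikzf1 stood above the median of that list and above Bcl11b (15.3), Ikzf3 close to Lef1 (16.8), and Ikzf2 and Ikzf5 below its lowest gene.

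**Figure D3:**
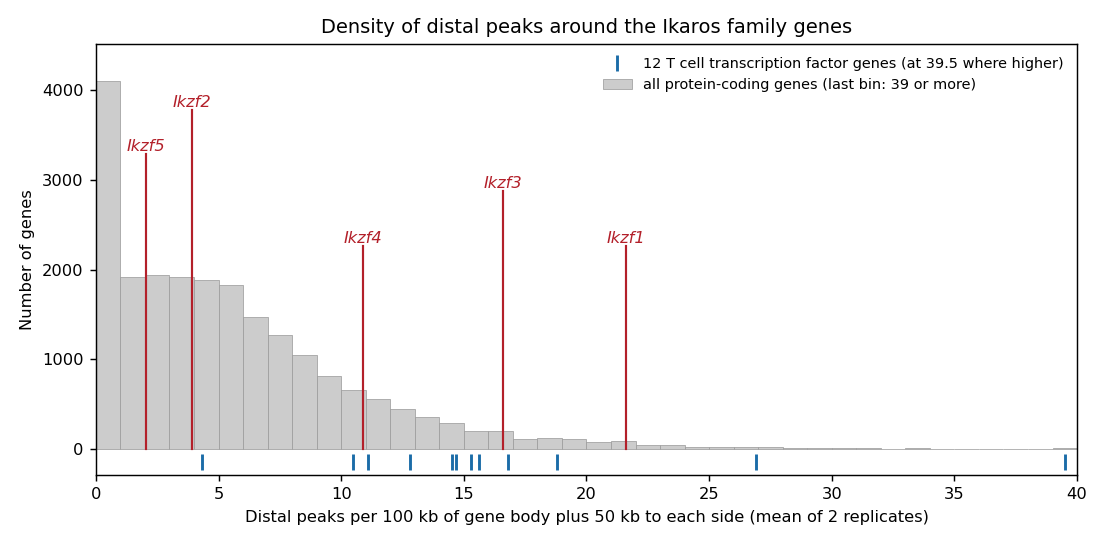
Histogram of distal peaks per 100 kb (mean of 2 replicates) over 21701 protein-coding genes, with the 5 family members as red lines and 12 T cell transcription factor genes as blue ticks under the bars (Tcf7, at 50.5, drawn at the right edge). Ikzf1 (21.6) and Ikzf3 (16.6) lie in the right tail, Ikzf4 (10.9) above the median, and Ikzf2 (3.91) and Ikzf5 (2.05) below the median of 4.51.

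The genes most like each member in promoter strength and distal density over the 2 samples, among genes of similar length, differed from member to member. Likeness was the Euclidean distance of 4 log2 values, smaller being more alike. Ikzf1 was nearest to Poc1b and Rnf43 (0.32 each) and Slc12a7 (0.51). Ikzf3 was nearest to Ppp1r16b (0.26), Abcg1 (0.28) and Sytl3 (0.30), and Ikzf2 to Kctd1 (0.19), Kmt2c (0.21) and Fbxw7 (0.30). Ikzf4 was nearest to Adrb1 (0.36), Inava (0.40) and Ube2l6 (0.41), and Ikzf5 to Ing3 (0.18), Dhx38 (0.36) and Palb2 (0.41).

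Footprints were called inside the family's peaks 281 times in replicate 1 and 362 times in replicate 2. The Ikzf1 locus had 98 and 127, Ikzf3 79 and 107, Ikzf4 53 and 71, Ikzf2 30 and 34, and Ikzf5 21 and 23. These counts include peaks at neighbouring genes. At the Ikzf5 locus, the gene's own promoter peak held 6 and 5, and the promoter peak of 2310057M21Rik 8 and 12. The shares that follow are taken over all footprints of a locus, inside peaks or not. The share of replicate 1 footprints of a locus that touched a replicate 2 footprint was 61.1% at Ikzf5, 53.3% at Ikzf4, 50% at Ikzf1, 46.2% at Ikzf3 and 28.1% at Ikzf2. As a share of the replicate 2 footprints these were 57.9% at Ikzf5, 41% at Ikzf4, 41.1% at Ikzf1, 35.3% at Ikzf3 and 18.8% at Ikzf2. Over all footprints of the series the share was 50.8% of replicate 1 and 45.5% of replicate 2. The Ikzf2 locus lay below it and the Ikzf5 locus above it in both directions. Of the 22 replicate 1 footprints found again at the Ikzf5 locus, 5 touched the gene's own promoter element and 9 that of 2310057M21Rik.

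Short motifs were searched on both strands of 300 bases of each shared element, centred between its strongest peaks of the 2 replicates, and a match is a string of letters, not a site shown to be bound. Among the 60 distal elements of the family, the core TGGGAA that Ikaros proteins themselves recognise occurred in 21 (35%), against 24.3% of 51167 distal elements genome-wide. The ETS letters GGAAGT, which can overlap the Ikaros core, occurred in 20 (33.3%, against 26.5%). The RUNX letters TGTGGT occurred in 20 (33.3%, against 28.4%). The TCF/LEF letters CTTTGA were in 13 (21.7%, against 21.6%), and the E-box letters CAGCTG in 16 (26.7%, against 25.4%). The GATA letters AGATAA were in 12 (20%, against 12.4%), and 8 of these 12 were at the Ikzf1 locus, which holds 25 of the 60 distal elements. The SP/KLF letters GGGCGG were in 7 (11.7%, against 14.0%).

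Few of these matches touched footprints of both replicates. The Ikaros core did so in 3 of 21 elements, among them the strongest Ikzf1 intron 3 element printed above, where it partly overlaps capitals. The TCF/LEF letters did so in 3 of 13, and in the Ikzf3 intron 1 element they lie wholly within capitals. The RUNX letters did so in 2 of 20, and in the Ikzf1 element at 11742841 to 11743020 they lie wholly within capitals. That element also held letters 1 mismatch from the CTCF consensus that touched footprints of both. The element at 11820321 to 11820520 counted for both the Ikaros and the TCF/LEF letters, and its CTCF consensus touched footprints of both too. Which letters a footprint belongs to was not tested. ETS letters did so in 2 of 20, SP/KLF letters in 2 of 7, and E-box and GATA letters in none of 16 and 12. In the printed Ikzf5 promoter the SP/KLF letters occurred 4 times, 1 of them wholly within capitals. Of all RefSeq promoter windows of this length, 35.7% held them.

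The replicates differed at distal elements with CTCF sites. Over all shared distal elements with a CTCF consensus the median log2 ratio of replicate 1 over replicate 2 was -0.81, and 91.5% were stronger in replicate 2, whereas without the consensus the median was 0.26 and the share 38.6%. The family had 3 such elements, 5.00% of its distal elements against 9.59% genome-wide. They lay in the Fignl1 gene body at 11788541 to 11788720 (1.45 in replicate 1 and 2.94 in replicate 2), in the Ddc gene body at 11820321 to 11820520 (1.40 and 2.83), and upstream of Ikzf3 at 98568397 to 98568600 (0.899 and 1.41). All 3 were stronger in replicate 2, and in all 3 the consensus touched footprints of both replicates. The 21 shared elements near start sites at the family's loci, where the consensus occurred in 0, had a median of 0.03. They comprised 11 at the family's own start sites and 10 at those of neighbouring genes. Of the 21, 10 were stronger in replicate 2, whereas the genome-wide median near start sites was 0.49 and the share 22.8%.

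A search that allowed 1 mismatch, added after these values were seen, found 7 further distal elements among the family's 60. Over all shared distal elements, 20.2% were 1 mismatch away. Of the family's 7, 6 were stronger in replicate 2. Among them were the Ikzf1 intron 3 element at 11742841 to 11743020, whose near-consensus touched footprints of both replicates (log2 ratio -0.91), and the element just upstream of Ikzf2, at 69689101 to 69689300 (-0.50). The exception was the element downstream of Ikzf3 at 98459021 to 98459840 (1.58), whose near-consensus touched no footprints of both. Of the remaining 50 distal elements, 17 (34.0%) were stronger in replicate 2, with a median of 0.59. The lowest ratio of the family was among these 50: the element downstream of Ikzf4 at 128612721 to 128612920 had -1.03 with neither the consensus nor a near match, and its Ikaros core touched footprints of both replicates. Genome-wide, elements 1 mismatch away had a median of -0.58 with 78.3% stronger in replicate 2, and elements farther away 0.45 with 27.2%. Each log2 ratio includes the scale factors of the samples, and the cause of the gap between these classes was not tested. The animals and the libraries cannot be told apart.

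**Figure D4:**
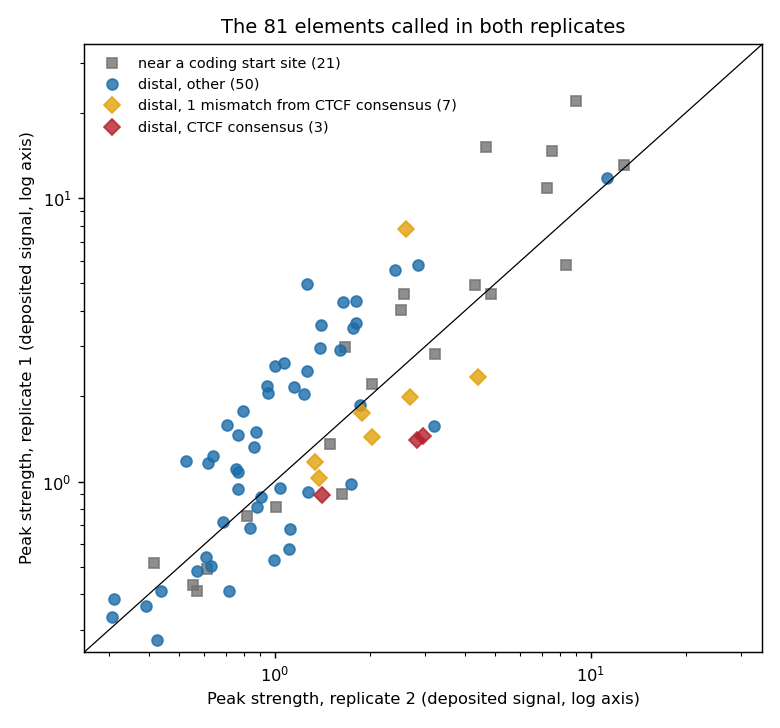
Strength in replicate 1 against replicate 2 for the family's 81 shared elements, both on log axes, with the line of equal deposited values. Red and yellow diamonds are distal elements with the CTCF consensus (3) or 1 mismatch from it (7), and 9 of these 10 lie below the line, while 17 of the other 50 distal elements (blue) do.

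The genes through which Ikaros proteins are known to act were mostly open. All 12 genes of the NuRD complex had promoters open in both replicates. The lowest was Mta1 (0.925 in replicate 1 and 0.979 in replicate 2), and the highest were Mbd3 in replicate 1 (34.5, with 10.5 in replicate 2) and Mbd2 in replicate 2 (10.6, with 11 in replicate 1). The 4 other corepressor genes and Crbn, whose human protein is the receptor through which thalidomide analogues degrade Ikaros and Aiolos, were open as well. Of 10 genes known to be bound or repressed by Ikaros in lymphocytes, 9 were open, among them Cd4 (3.33 and 1.63), Ptcra (6.16 and 1.83) and Dntt (1.48 and 1.40). Igll1, a gene of the pre-B cell receptor, had no promoter peak in either replicate. With 60.7% of all genes open, these 26 of 27 are given as a description.

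The tissue label was set beside marker genes in the same way. All 10 thymocyte markers were open in both replicates, none of 3 hepatocyte markers were, and 1 of 5 epithelial markers (Ly75) was. Among B cell markers Cd79b, Pax5 and Ebf1 were open in both replicates and Cd79a was not, and of 3 regulatory T cell markers Foxp3 (0.867 and 0.415) and Ctla4 (1.34 and 0.841) were open in both. Of 3 striated muscle markers Ckm was open (6.42 and 3.80), and Acta1 and Myh4 were not. The part of B cells or regulatory T cells in the Ikzf2, Ikzf3 and Ikzf4 elements was not tested.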

How the data were processed

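DNase-seq peaks, footprints and a false discovery rate track were taken for 2 thymus samples. The listing deposited with each sample gives mm10 as assembly and derives each file from 1 sample, without pooling. Aligner, callers, settings and treatment of CAST alleles: not given in the sources used here. Peak strength is the authors' deposited signal, scaled by 1 factor per sample. In the authors' deposited track, the p-value column holds q-values (false discovery rates), listed only where under 0.05. The score column of the footprint files is constant and was not used. Read depth is unknown, so no intervals are given.

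The longer of the 2 deposited peak lists was used, and the shorter, stricter list was an alternative. Gene bodies with 50 kb to each side and start sites with 500 bp to each side came from GENCODE M21, with introns numbered on the reference transcript (basic, coding, best supported, longest). Distal peaks had their midpoint over 500 bp from any start of a protein-coding gene. The background was 21701 protein-coding genes, after 27 duplicated symbols were left out. Sequence came from GRCm38.p6. Motif windows were 300 bases. CTCF was searched as a 12-letter consensus with ambiguous letters. Elements named in the text were chosen mainly by a rule on strength. It took every open start site, the 3 strongest distal peaks per gene and replicate, and the strongest without a counterpart. Some further elements were named beside these, and not every peak under the rule was named. The 12 comparison genes and 27 partner genes were listed by name, not by strength. The family, the lists and the motifs were chosen with earlier results of these data known. With 1 group there was no comparison between conditions and no test was made. The value of 1 marker gene is not reported here. The merging and calling code was tested on simulated peaks. Python 3.11.15, NumPy 2.4.6, pandas 2.3.3, pysam 0.24.0 and matplotlib 3.10.9 were used.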

Additional observations from a re-analysis of the deposited data

How the results depend on the processing

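The 6 counts were recomputed under 35 alternatives, and 29 stayed within 1.5 times the value reported. All 5 promoters were open under every alternative, and the partner genes with open promoters stayed between 25 and 27 of 27, with Dntt lost in the stricter peak list. The shared elements numbered 81, and the peaks of a single replicate, with the other left out, were between 108 and 137. The elements inside the family's own gene bodies numbered 34, against 21 in the stricter list, 20 with a reciprocal overlap of 50% and between 42 and 58 with a replicate left out. Footprints in peaks averaged 322 per replicate, 194 where peaks needed a reciprocal overlap of 50%, and between 281 and 362 in a single replicate. The start sites open in both were 25 of 30, and 13 of 15 in the GENCODE basic set, an alternative chosen after seeing the data. For these the sets differ by construction, as fewer peaks, samples or sites are counted. Distal density moved by over 1.5 times in 4 of 20 alternatives. The stricter list gave 14.1 for Ikzf1 and 1.95 for Ikzf2, and a distance of over 2000 bp gave 6.08 for Ikzf4 and 0 for Ikzf5. The order of the 5 genes was kept except with 100 kb to each side, where Ikzf3 had 15.3 and Ikzf1 14.6, and the cause was not tested. No paired analysis was possible because the series has 1 group. Unknown depth limits all statements on missing peaks: an element without a peak was not called, which does not show that it was closed.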
